A study of Arabidopsis thaliana with 6 samples.

Results

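Arabinogalactan proteins (AGPs) and fasciclin-like arabinogalactan proteins (FLAs) of Arabidopsis thaliana were followed across a wild type and a pair of ago2 mutant lines, with and without gamma irradiation. The genes were taken by name: every locus whose symbol or synonym is AGP or FLA followed by a number in the RefSeq gene table. This gave 50 genes, 30 named AGP and 20 named FLA, of 25388 loci with a probe on the array. FLA8 also carries the name AGP8 and was counted once, and FLA4 is listed under the symbol SOS5. Of the 50 genes 42 had a probe that was well above background on 2 or more arrays and entered the tests, 27 AGPs and 15 FLAs, among 20171 such loci.

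AGPs are secreted proteins of the plant cell surface and wall whose backbones are rich in hydroxyproline and carry large branched sugars made of galactose and arabinose. Most are first anchored to the plasma membrane by a lipid (a GPI anchor) and may be released from it. Classical AGPs have long backbones and AG peptides very short ones, lysine-rich AGPs hold a basic stretch, PAC-domain AGPs add a cysteine-containing domain, and FLAs add fasciclin domains, which are known in adhesion proteins of animals. In seedlings, members of these families are known from root growth, root hairs, the vascular tissue and the response to salt.

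The lines were the wild type of ecotype Columbia (WT) and the mutant lines ago2a and ago2c in the same ecotype, which carry mutations of ARGONAUTE2 (AGO2), a small-RNA-binding protein. The alleles behind the names ago2a and ago2c are not given in the sources used here. At 14 days, seedlings were given 200 Gy of gamma rays from a cobalt source at 50 Gy per hour for 4 hours, and the irradiated samples are labelled 24 hours; the other samples were mock treated. Each of the 6 conditions was measured on 1 array, with RNA of at least 10 whole seedlings pooled from 3 independent batches, so no spread within a condition can be given, and in whole seedlings fewer cells of a type and less RNA per cell cannot be told apart. AGO2 had processed signals of 250.1 in mock and 521 in irradiated WT, and lay between 5.03 and 12.9, not well above background, in the 4 ago2 arrays.

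Values are relative signals, that is the processed signal as a multiple of the 75th percentile of its array, and responses are log2 irradiated minus mock within a line. Relative signals of different genes come from different probes and are not set against each other. The 75th percentile lay between 1374 and 2338, and between 70.5% and 73.4% of probes were well above background on an array. WT and ago2a lay on slide 1 and ago2c on slide 2. By the other probes of a gene relative to its brightest, the arrays part into an array group 1, with both WT arrays and ago2a mock, and an array group 2, with ago2a irradiated and both ago2c arrays. The response of ago2a therefore crosses the array groups, and those of WT and ago2c do not.

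The radiation response of the families parted into a small set of genes that were much lower in both irradiated ago2 lines and a larger remainder, most of which moved little. Of the 42 genes 7 were at least 2-fold lower after irradiation in both ago2 lines, against 3.74% of all loci tested: the AG peptide genes AGP13, AGP14, AGP22 and AGP24, the classical AGP3, the PAC-domain gene AGP30 and FLA6. Their responses lay between -2.09 and -1.72 in ago2a, between -2.56 and -1.40 in ago2c and between -0.73 and 0.20 in WT. This set was formed from the values themselves and gets no test of its own.

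Of the AG peptide genes, AGP22 had relative signals of 0.640 mock to 0.431 irradiated in WT, 0.805 to 0.189 in ago2a and 0.532 to 0.0927 in ago2c. Irradiated seedlings held 23.5% of the mock level in ago2a and 17.4% in ago2c, against 67.4% in WT. For AGP13 the relative signals were 0.805 mock to 0.486 irradiated in WT, 0.892 to 0.244 in ago2a and 0.627 to 0.134 in ago2c, and its WT response of -0.73 was the lowest of any tested member in that line. In AGP24 they were 8.62 mock to 7.79 irradiated in WT, 10.4 to 3.14 in ago2a and 6.87 to 2.07 in ago2c. The 2 ago2 lines gave responses of -1.72 and -1.73 for this gene, while WT gave -0.15. AGP14, which limits root hair length, had 1.19 mock to 1.04 irradiated in WT, 1.27 to 0.374 in ago2a and 0.843 to 0.320 in ago2c. In all 4 AG peptide genes the 2 irradiated ago2 arrays were the lowest of the 6.

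AGP30 is expressed mainly in roots and acts in root regeneration and the timing of seed germination. Its relative signals were 0.600 mock to 0.691 irradiated in WT, 0.594 to 0.146 in ago2a and 0.481 to 0.126 in ago2c. The irradiated ago2 seedlings held 21.1% and 18.2% of the irradiated WT level, whereas the mock seedlings held 99.1% and 80.2% of mock WT. It was the gene of the set whose WT response was above 0 (0.20). The classical AGP3 had 2.43 mock to 2.33 irradiated in WT, 2.86 to 0.721 in ago2a and 1.45 to 0.372 in ago2c, so that WT kept 96.0% of its mock level and the ago2 lines 25.2% and 25.7%. FLA6, of the FLA group A that carries a GPI anchor signal, had 0.217 mock to 0.208 irradiated in WT, 0.284 to 0.0731 in ago2a and 0.144 to 0.0244 in ago2c. Its ago2c response of -2.56 was the lowest of any tested member in any line.

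Before irradiation these genes did not stand lower in ago2a. Its mock array held a median of 118% of the WT mock level over the 7 genes. In ago2c mock the same genes were at 59.8% (AGP3) to 83.1% (AGP22) of WT mock, so that ago2c was below WT in both treatments. The ago2c arrays lie on another slide and in another array group than the WT arrays. Here and elsewhere, line, slide and array group cannot be told apart where levels of ago2c are set against WT. In all 7 genes both irradiated ago2 arrays lay below the other 4 arrays; this held for 18 of the 42 tested members, against 15.5% of all loci tested.

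**Figure D1:**
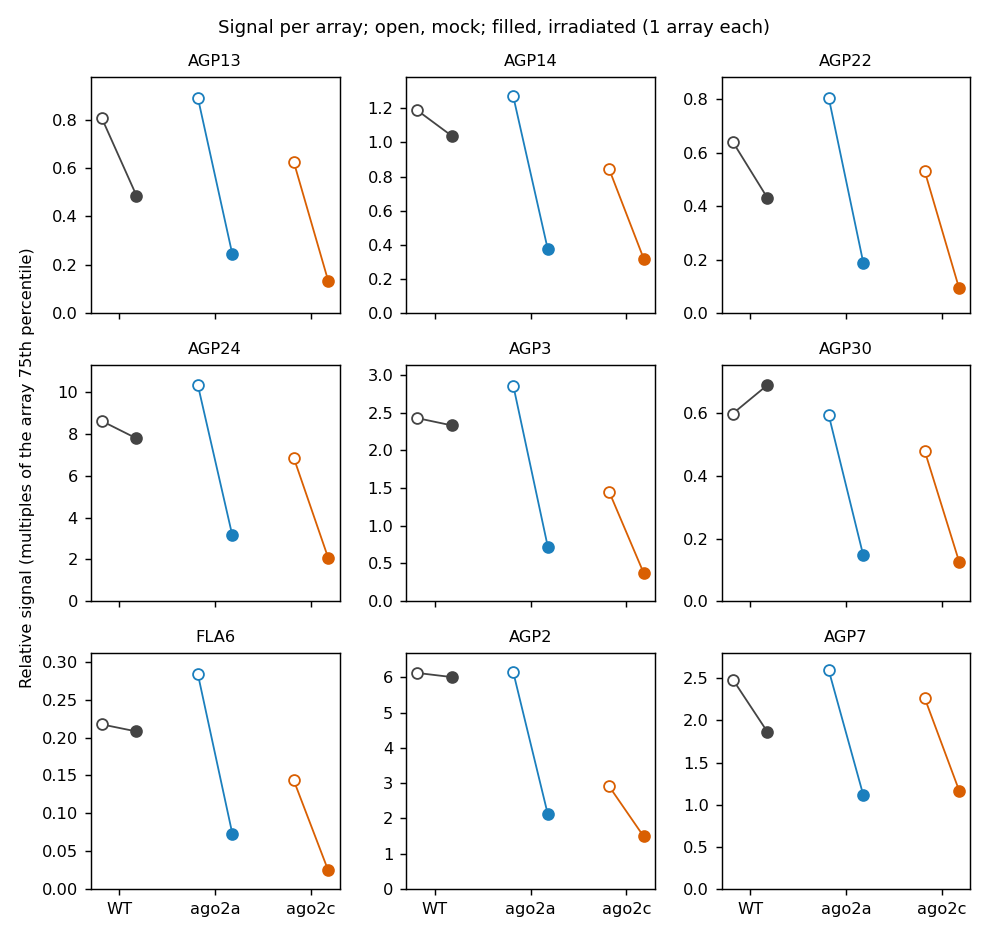
Relative signal (multiples of the array's 75th percentile, linear axis from 0) of 9 genes on the 6 arrays, with open circles for mock and filled circles for irradiated seedlings of each line, 1 array each. In AGP13, AGP14, AGP22, AGP24, AGP3, AGP30 and FLA6 the filled circles of ago2a and ago2c are the lowest points, and AGP2 and AGP7, just outside 2-fold in ago2c, follow with smaller steps.

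Just outside the set were AGP2 and AGP7, both classical AGPs, with ago2c responses of -0.97 and -0.96. AGP2 had 6.12 mock to 6.0 irradiated in WT, 6.14 to 2.12 in ago2a and 2.91 to 1.49 in ago2c; its ago2c mock array was already at 47.5% of WT mock. AGP7 had 2.48 mock to 1.86 irradiated in WT, 2.59 to 1.11 in ago2a and 2.27 to 1.17 in ago2c. FLA10 was lower in ago2a, from 0.0406 to 0.00993, but was not well above background on the irradiated ago2a array and on both ago2c arrays. The ago2a difference is therefore a bound of at least 3.18-fold, which sets the bright array against the higher of the dim array's own value and its lowest signal well above background. Just inside the set, the smallest response was the -1.40 of AGP14 in ago2c.

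Counted by line, no member was at least 2-fold lower or higher in WT, where 1.57% and 1.27% of all loci were. In ago2a 10 of 42 members were lower and none higher, against 7.39% and 1.39% of all loci. The 10 were the 7 genes with AGP2, AGP7 and FLA10. In ago2c the same 7 genes were lower, against 5.51% of loci, and 1, AGP5, was higher, against 1.27%. With 1 array per condition these counts carry no test.

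AGP5 is a classical AGP. Its processed signals were 105 mock to 157 irradiated in WT, 344 to 322 in ago2a and 12.1 to 88.4 in ago2c. The ago2c mock array was not well above background, which makes the higher value after irradiation in that line a bound of at least 3.74-fold. The ago2a mock array was the brightest of the 3 mock arrays, at 305% of WT, so the 2 ago2 lines lay on opposite sides of WT before irradiation.

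**Figure D2:**
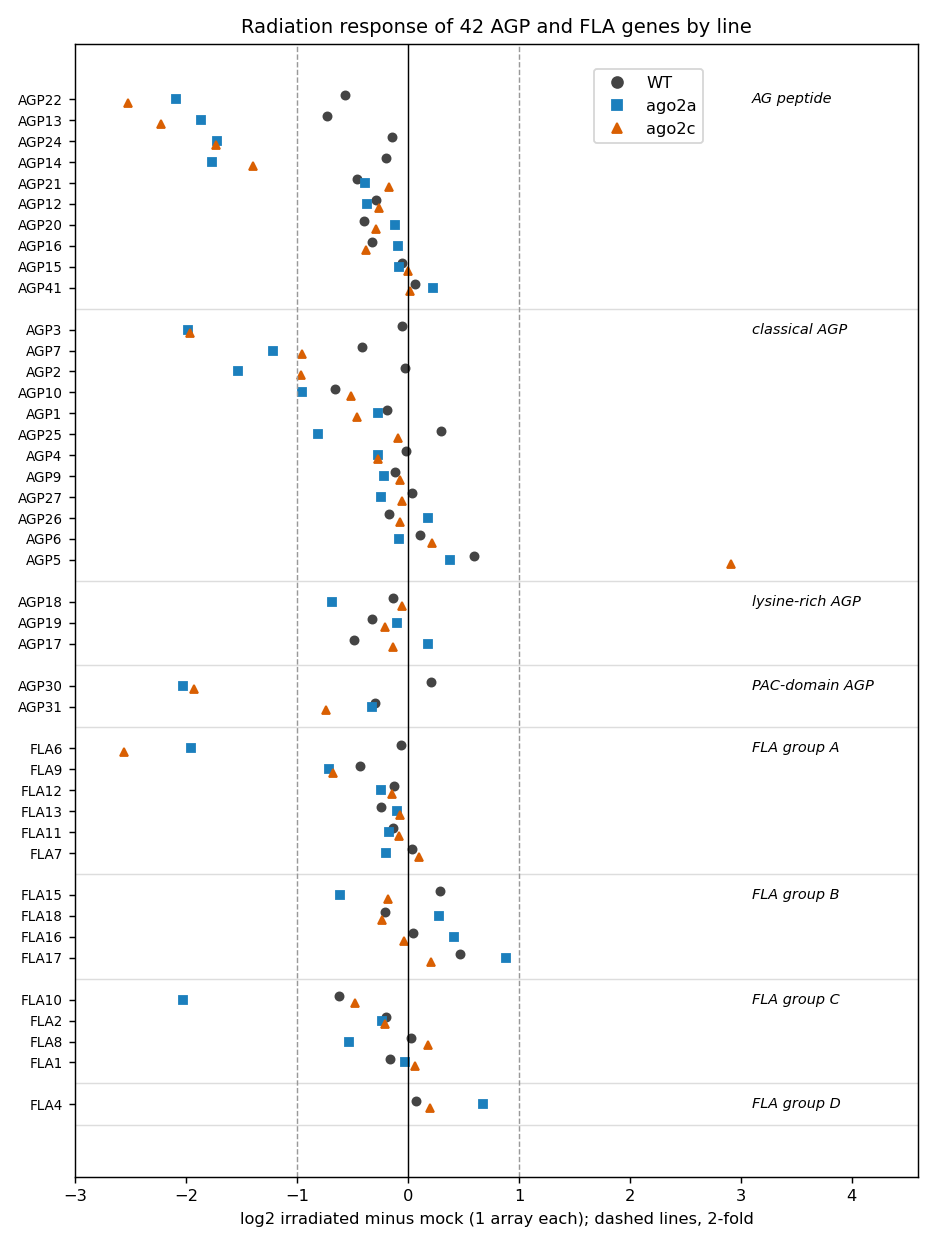
Log2 irradiated minus mock (x axis) of the 42 tested genes by structural class, with circles for WT, squares for ago2a and triangles for ago2c, 1 array per condition, and dashed lines at 2-fold. AGP22, AGP13, AGP24, AGP14, AGP3, AGP30 and FLA6 lie left of the lower dashed line in both ago2 lines while no WT point does; the values of FLA10 in ago2a and AGP5 in ago2c rest on a dim array and are bounds.

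Most of the remaining members moved little. Outside the set of 7, 23 of 35 members lay within 1.5-fold in all 3 lines, and 32 did so in WT, 25 in ago2a and 30 in ago2c. AGP2, AGP7 and FLA10 were at least 2-fold lower in ago2a. The share of all loci within 1.5-fold was not counted in this form, so these counts are not read as particular to the members. The other AG peptide genes gave small responses: AGP12 (-0.29, -0.37 and -0.26 in WT, ago2a and ago2c), AGP15 (-0.06, -0.08 and 0.00), AGP16 (-0.32, -0.09 and -0.38), AGP20 (-0.39, -0.11 and -0.29) and AGP41 (0.06, 0.23 and 0.02). AGP21, which acts in root hair cell fate, gave -0.46, -0.39 and -0.17, with the largest of the 3 differences in WT. The AG peptide class thus held 4 genes far below 0 in the ago2 lines and 6 near 0.

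Among classical AGPs, AGP10 was lower in every line, with relative signals of 2.42 mock to 1.53 irradiated in WT, 2.46 to 1.26 in ago2a and 1.56 to 1.1 in ago2c. AGP4 (JAGGER), which acts in the female gametophyte to stop further pollen tubes, gave responses of -0.02 in WT beside -0.27 in ago2a and -0.27 in ago2c. AGP6, known from pollen, was well above background on all 6 arrays but stayed at relative signals of 0.0230 to 0.0281. The 3 lysine-rich genes had negative responses in WT and in ago2c, all within 1.5-fold, and differed in sign in ago2a by their brightest probes. AGP17, known from root binding of Agrobacterium, gave -0.49, 0.18 and -0.13, AGP18, known from the female gametophyte, gave -0.13, -0.69 and -0.05, and AGP19, known from cell division and expansion, gave -0.32, -0.10 and -0.21. By its other probe AGP17 was also below 0 in ago2a (-0.08). The second PAC-domain gene, AGP31, of the vascular tissue, was lower in all 3 lines by its brightest probe (-0.30, -0.33 and -0.74), without the step of AGP30 in ago2a. A further, much dimmer probe of AGP31 did show a step. Its processed signals were 159 mock to 152 irradiated in WT, 204 to 24.0 in ago2a and 38.9 to 16.1 in ago2c. It was not well above background on either irradiated ago2 array.

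Within the FLAs, FLA6 stood apart from the rest of group A. FLA9 had 14.2 mock to 10.5 irradiated in WT, 12.7 to 7.79 in ago2a and 14.6 to 9.15 in ago2c and was lower by a like amount in both ago2 lines (-0.44, -0.71 and -0.68). FLA11 and FLA12, which act in secondary walls of the xylem, gave -0.14, -0.17 and -0.08 and -0.13, -0.25 and -0.15. In group B, FLA17 had 0.141 mock to 0.195 irradiated in WT, 0.173 to 0.320 in ago2a and 0.257 to 0.295 in ago2c and was the member with the highest response in ago2a (0.88). FLA15 of the same group had a higher value after irradiation in WT and lower ones in the ago2 lines (0.29, -0.61 and -0.18). FLA4 (SOS5), which maintains root growth under salt with the receptor kinases FEI1 and FEI2, gave 0.07, 0.67 and 0.20; FEI1 gave 0.18, 0.14 and 0.26 and FEI2 -0.01, 0.37 and 0.10.

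Taken over all 42 tested members, the median response was -0.14 in WT (all loci -0.01), -0.26 in ago2a (all loci 0.06) and -0.19 in ago2c (all loci 0.01). The response was negative in all 3 lines in 25 members, against 18% of all loci. It was positive in all 3 in 4 members (AGP5, FLA17, FLA4 and AGP41), against 21.4%. Positive values in WT with negative values in both ago2 lines were found in 4 (FLA15, AGP30, AGP25 and AGP27), against 12%. These counts rest on the brightest probes. By their other probes FLA17 gave -0.60, 0.56 and -0.07 in WT, ago2a and ago2c, and AGP27 gave -0.14, -0.40 and -0.03. Across the 42 members the responses of ago2a and ago2c correlated with Pearson r 0.79 and Spearman rho 0.77, those of WT and ago2a with 0.35 and 0.30, and those of WT and ago2c with 0.46 and 0.54. Over all loci r was 0.60, 0.26 and 0.28. These describe genes measured on the same arrays, which are not independent.

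The irradiation comparison set the 3 irradiated arrays against the 3 mock arrays with line as a block. No member passed an adjusted p of 0.05 in limma, where 0.223% of all loci were called higher and 0.0149% lower. The smallest adjusted p of a member was that of FLA9 (limma, 0.165), with a mean response of -0.61 ± 0.10 (log2, SE) and a lower value in 3 of 3 lines. AGP10 followed with -0.71 ± 0.12 (limma adjusted p = 0.169). Here and below the SE is that of limma, whose variance is moderated towards that of all loci. It is not the spread between the line pairs. The lowest mean response was that of AGP22, -1.73 ± 0.42 (limma adjusted p = 0.247), with a response of -0.57 in WT beside -2.09 and -2.52 in the ago2 lines. At an unadjusted p under 0.05, 14 members were lower, against 8.21% of loci, and 1, FLA17, was higher, against 5.68%. With the mean of its probes the mean response of FLA17 moved from 0.52 to 0.24. Without the WT pair 9 members were called lower among 4.70% of all loci, namely the 7 genes with AGP2 and AGP7. That fit holds only the ago2 arrays, from which the 7 genes were chosen, so its calls are no independent test of them. Its ago2a pair also crosses the array groups. Without ago2a no member was called lower, where 0% of all loci were, and without ago2c none, where 0.0297% were. So few calls over all loci leave these fits with little to say about the members.

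The title of the series names the contrast between the responses of WT and of the mutant lines. That difference, the mean response of the 2 ago2 lines minus that of WT, was -2.20 ± 0.34 for FLA6, -2.18 ± 0.23 for AGP30, -1.92 ± 0.23 for AGP3, -1.74 ± 0.29 for AGP22, -1.58 ± 0.23 for AGP24, -1.39 ± 0.28 for AGP14 and -1.32 ± 0.27 for AGP13 (log2, SE). None of the 7 passed: their adjusted p-values in limma lay between 0.161 and 0.216, and no locus passed in either direction (0% higher and 0% lower of all loci). At an unadjusted p under 0.05, 8 members had a lower response in the ago2 lines, the 7 genes and AGP2, against 7.92% of loci, and 0 a higher one, against 0.902%. The fit has 1 residual degree of freedom, and WT enters it with 1 pair of arrays. The 7 genes were chosen on these same arrays, so the p-values are no independent test of the set.

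The call of this difference depended on the processing. With normexp background correction 8 members passed, the 7 genes and AGP2, among 2.65% of loci called lower. With array median scaling AGP3, AGP22, AGP30 and FLA6 passed, among 2.65% of loci, and with the authors' values the same 4 among 2.67%. With a trended variance these 4 and AGP24 passed, among 1.04%. In each of 8 other ways of preparing the values (normexp, quantile normalization, array median scaling, the authors' values, other filters and other probe rules) the 7 genes had negative responses in both ago2 lines. The 7 were chosen as lower on these same arrays, so this sign was largely set in advance. The other filters left their values unchanged, and a gene with 1 probe cannot change under the probe rules. Array median scaling moved the median of all loci in this difference from 0.06 to 0.20, and the 7 genes lay below it in both cases.

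At the other end, AGP17 had the highest response difference of the members with both ago2 lines above WT, 0.51 ± 0.26, followed by FLA4 with 0.36 ± 0.31 (limma adjusted p of 0.852 and 0.91). AGP26 (0.22 ± 0.25), AGP20 (0.19 ± 0.24) and FLA1 (0.18 ± 0.23) came next. None of the 5 passed. For AGP26, AGP20 and FLA1 the direction held by the brightest probe only. By the other probe ago2a lay below WT: -0.77 against -0.34 in AGP26, -0.53 against -0.28 in AGP20 and -0.93 against -0.03 in FLA1. The other probe of AGP17 kept both ago2 lines above WT (-0.50, -0.08 and -0.15 in WT, ago2a and ago2c).

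Over both treatments, the 4 ago2 arrays against the 2 WT arrays gave no member past 0.05 (smallest limma adjusted p 0.643), where 0% of loci were called higher and 0.00496% lower. At an unadjusted p under 0.05, 1 member, AGP2, was lower, against 2.42% of loci, and 1, FLA17, was higher, against 1.48%. Of the 4 ago2 arrays 1, ago2a mock, lies in the array group of WT, so genotype and array group cannot be told apart on the other 3. Lower values than WT in 4 of 4 pairs within a treatment, which share the 2 WT arrays, were found in 8 members, with AGP30 (-1.26 ± 0.51), FLA10, FLA8 (-0.38 ± 0.17), AGP27 (-0.26 ± 0.12) and AGP1 (-0.20 ± 0.14) at the low end (log2, SE), against 10.7% of all loci. FLA10 was not well above background on 3 of the 4 ago2 arrays, so no size is given for it. AGP27 was at -0.07 with normexp and -0.08 with quantile normalization, and AGP30 at -0.59 with the array group in the fit. FLA8 had relative signals of 3.23 mock to 3.29 irradiated in WT, 3.05 to 2.1 in ago2a and 2.32 to 2.62 in ago2c. Higher values in 4 of 4 pairs were found in FLA17 (0.62 ± 0.18), FLA16 (0.37 ± 0.18), FLA1 (0.15 ± 0.10) and AGP16 (0.11 ± 0.11), 4 members against 11.6% of all loci. FLA16, which acts in stems, had 3.48 mock to 3.59 irradiated in WT, 3.56 to 4.76 in ago2a and 5.16 to 5.03 in ago2c, so that ago2a mock lay close to WT and the other 3 ago2 arrays above it. FLA10 (0.02) and FLA16 (0.00) changed sign when the array group was added to the fit, and FLA1 (-0.09) with the mean of its probes.

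For members with several probes the response could be read more than once. Probes dim on any array, such as the further probe of AGP31, were left out of the next counts. Over 26 other probes of 19 members, all bright on 6 arrays, none differed from the brightest probe by over 2-fold in ago2c and 1 did in WT, a probe of FLA17 (-0.60 against 0.47). In ago2a 5 did, all lower: 1 probe each of AGP4, AGP9 and FLA7 and 2 of FLA2. AGP4 gave -0.27 in ago2a by its brightest probe and -2.07 by the other, beside -0.27 and -0.47 in ago2c. The ago2a response of these genes thus depends on the probe, and its arrays lie in different array groups. AGP13, AGP24 and AGP30 gave like values with both probes in each line, for AGP30 -2.03 and -2.23 in ago2a and -1.93 and -2.09 in ago2c. Taking the median of the other probes, where a gene has them, left 7 members at least 2-fold lower in both ago2 lines, against 3.89% of all loci under that rule, and moved the ago2a count from 10 to 14, against 11.3%. In the count of 7, AGP3, AGP14 and AGP22 could not change, having 1 probe each. The other probe of FLA6 was not well above background on either irradiated ago2 array. Whether probes of similar AGP genes share target RNA was not tested.

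**Figure D3:**
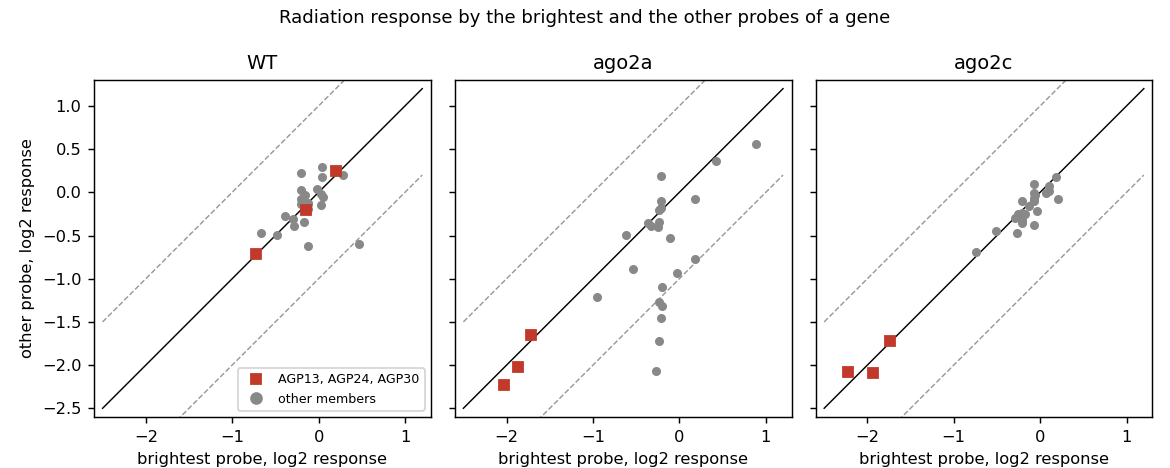
Response (log2 irradiated minus mock) by another probe of the same gene (y axis) against the brightest probe (x axis) for 26 probes of 19 members, 1 panel per line, with the line of equality and dashed lines at 2-fold. The points lie on the line in ago2c, fall below it for 5 probes in ago2a, and AGP13, AGP24 and AGP30 (squares) stay near it in every panel.

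The genes that make and process the sugars and the anchor had median responses near 0. The list held prolyl hydroxylases, galactosyl-, glucuronosyl- and fucosyltransferases, hydrolases of the sugar, GPI transamidase subunits and the FEI kinases, 32 loci, of which 30 were tested. None passed in any of the 3 fits, and the median response was 0.07 in WT, with 0.09 in ago2a and 0.02 in ago2c. FUT6, which adds fucose to AGP sugars, was the 1 gene of the 30 at least 2-fold lower in both ago2 lines, against 3.74% of all loci. The count is near that share and is not read as a result about the list. FUT6 had relative signals of 0.250 mock to 0.326 irradiated in WT, 0.331 to 0.134 in ago2a and 0.192 to 0.0658 in ago2c. The related fucosyltransferase gene FUT4 gave 0.61, -0.65 and -0.44, also above 0 in WT and below 0 in both ago2 lines. The locus AT1G33430 gave 0.08, -1.04 and -0.67. At the high end, P4H1, a prolyl hydroxylase, gave 0.25, 0.39 and 0.04 and the locus AT3G15350 0.18, 0.61 and 0.20.

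Markers of roots and root hairs were lower in the same arrays. Of 11 tested root markers 4 (CASP1, CASP2, MYB36 and PHT1;1) were at least 2-fold lower in both ago2 lines. The median response of the 11 was -0.05 in WT beside -1.44 in ago2a and -1.56 in ago2c. Their relative signals, summed over the 11 genes with 1 probe each, went from 58.8 mock to 82.9 irradiated in WT, 73.8 to 44.4 in ago2a and 50.2 to 26 in ago2c. Most of that sum is BGLU23 (47.2 to 68.5 in WT), and without it the sums were 11.6 to 14.4 in WT, 14.3 to 5.94 in ago2a and 8.88 to 3.38 in ago2c. Of 8 root hair markers 5 were lower in both, with medians of 0.17, -1.79 and -1.66 and summed relative signals of 2.1 mock to 2.35 irradiated in WT, 2.55 to 0.866 in ago2a and 1.38 to 0.466 in ago2c. EXPA7, a root hair expansin, gave 0.23, -2.44 and -2.59, whereas RHD6 gave -0.11, -0.30 and -1.84 and LRX1 0.30, -1.60 and 1.03, 2-fold higher in ago2c. CASP1, of the Casparian strip, gave -0.11, -1.73 and -1.79. The root markers did not all move this way: SCR, of the endodermis, gave -0.15, 0.42 and -0.03. The nitrate transporter gene NRT2.1, dim on 3 arrays, went the other way, at least 1.95-fold lower after irradiation in WT and at least 1.54-fold and 1.82-fold higher in ago2a and ago2c. PLT1, also dim on the 3 irradiated arrays, was at least 2.22-fold lower in WT and in ago2a and at least 1.56-fold lower in ago2c. None of these markers passed in any fit, and their part in the values of the 7 genes was not tested.

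Xylem wall markers had no gene of 12 at that threshold in both ago2 lines, with medians of 0.00, -0.56 and -0.14. Leaf photosynthesis markers had medians of -0.03, 0.38 and 0.16 over 8 genes. Of 7 pollen markers 1 was tested, TUA1 (-0.07, -0.03 and -0.02), and 5 were dim on every array. For the labelled tissue, the whole seedling, 7 of the 11 tested root markers and 8 of 8 leaf markers were well above background on all 6 arrays, and PLT2, a further root marker, was not tested.

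**Figure D4:**
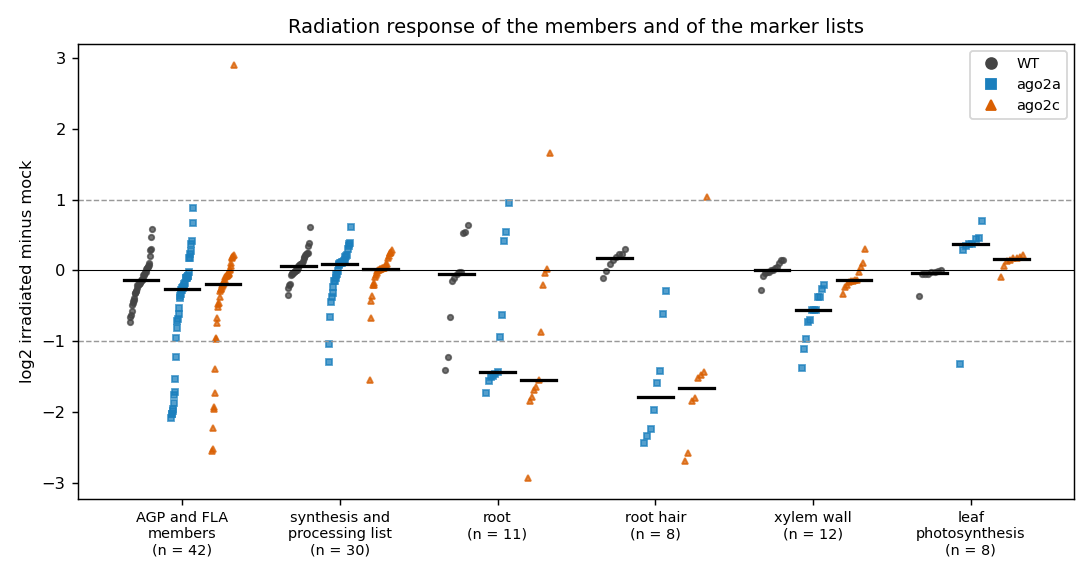
Log2 irradiated minus mock (y axis) of the tested AGP and FLA genes, of the sugar synthesis and processing list and of markers of roots, root hairs, xylem walls and leaf photosynthesis, for WT (circles), ago2a (squares) and ago2c (triangles), with bars at the medians and dashed lines at 2-fold. The low tail of the AGP and FLA genes in ago2a and ago2c spans the range in which most root and root hair markers lie, and the medians of the processing list lie near 0, with FUT6 below the lower dashed line in both ago2 lines.

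The 7 genes do not lie next to each other or to another member on the chromosomes. The 13 nearest tested neighbours on either side were taken on the same chromosome, by the order of the RefSeq gene table. Of these, 0 were at least 2-fold lower in both ago2 lines, against 3.74% of all loci tested. At that share the count is not read as a result. Untested genes were passed over, and the neighbour after AGP13 lay 10 genes away. The neighbour before AGP22, AT5G53230, had responses of 1.90, 2.22 and 2.17, and the one before AGP30, AT2G33780, had -1.94, -2.73 and -0.25.

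Of the 50 members 8 could not be tested. AGP11, AGP23, AGP40, FLA3, FLA5 and FLA21 were not well above background on any array; AGP11 and FLA3 are known from pollen. FLA20 was well above background in WT mock alone, with a processed signal of 118 there and between 4.00 and 7.34 on the other arrays, which gives at least 4.48-fold between mock and irradiated WT. FLA14 was well above background in irradiated ago2c alone.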

How the data were processed

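RNA from whole seedlings was hybridised, with Cy3 as the only dye, to Agilent arrays, per the labels' protocols. Spot intensities come from Feature Extraction 11.0.1.1, as the authors deposited them, and the processed signal used here is background-corrected, per the file headers. The authors' deposited table holds a linear ratio, equal to the processed signal over the array median and over a further value per probe of unstated origin; it served as an alternative, and its column medians lay between 0.878 and 1.06.

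Leaving out control and outlier-flagged spots removed 53 probes, and 34309 of 43550 probes were matched to a locus through accessions in the RefSeq gene table of assembly TAIR10.1. Each log2 processed signal was set against its array's 75th percentile. The brightest probe among those well above background on 2 or more arrays stood for each locus. No spot was saturated (0).

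Fits over all 20171 loci used limma 3.58.1 in R 4.3.3 (lmFit, eBayes, Benjamini-Hochberg at 0.05), tested on simulated data. Irradiation was fitted with line as a block, genotype with irradiation as a term, and the response difference with line and irradiation; residual degrees of freedom were 2, 3 and 1. Changes of 2-fold within a line were counted, without a test, where the brighter array was well above background by any probe of the locus. The pooled batches cannot be separated, and the number of arrays limits the precision.

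Members, lists, rules and most alternatives were chosen with earlier results of these data known. Structural classes follow the published division of the families; sequences were not used here. The named members were those past 0.05, the lowest and highest with a consistent direction in each comparison and line, those with a bound and up to 3 per class. Loci of the synthesis list that the gene table does not name are given by locus tag. AGP2 and other examples outside the rule were chosen after their values were seen. A marker dim on 1 array of a line was counted by its bound.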

Additional observations from a re-analysis of the deposited data

Results flagged for a closer look

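In 4 members the response was above 0 in WT and below 0 in both ago2 lines. This was 9.52% of the tested members, against 12% of all loci, so the count is not particular to the members. For AGP27 it held by the brightest probe only. Its other probe gave -0.14, -0.40 and -0.03 in WT, ago2a and ago2c. The difference, ago2 minus WT (log2), was -2.18 in AGP30, -0.75 in AGP25, -0.68 in FLA15 and -0.18 in AGP27. None of the 4 differences passed an adjusted p of 0.05 in limma (0.161 in AGP30, 0.843 in AGP25, 0.719 in FLA15 and 0.921 in AGP27). AGP25, a classical AGP, had relative signals of 0.193 mock to 0.238 irradiated in WT, 0.197 to 0.112 in ago2a and 0.107 to 0.101 in ago2c, so that ago2c was lower than WT in both treatments.

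FLA14, which did not enter the tests, had a processed signal of 38.5 in irradiated ago2c, well above background on that array alone. The other 5 arrays lay between 4.36 and 7.12. Against the mock array of the line this is at least 1.63-fold, on a single probe and a single array.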

How the results depend on the processing

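The limits are those of single arrays: no spread within a condition, 1 residual degree of freedom in the response difference, and an ago2a response that crosses the array groups. Of the results with a single gene, 331 values kept their direction and side of the threshold, 26 passed it under an alternative and 4 changed sign; of the counts and medians 161 stayed close to the reported value and 24 moved. The median of the members in the irradiation comparison was -0.21, and -0.12 with array median scaling and with the authors' values. In the genotype comparison it was -0.11, and 0.0023 with median scaling, 0.00099 with the authors' values and -0.22 with the mean of probes. In the response difference it was -0.07, and 0.065, 0.065 and -0.19 under the same 3 settings; the median of all loci there moved from 0.06 to 0.20, 0.20 and 0.02. Members with a lower response in the ago2 lines at an adjusted p of 0.05 numbered 0, and 8 with normexp, 4 with median scaling, 4 with the authors' values and 5 with a trended variance. Leaving out WT gave 9 members lower in the irradiation comparison (4.70% of all loci), on the arrays from which most of them had been chosen. Leaving out ago2a gave 0 (0% of all loci) and leaving out ago2c 0 (0.0297%). At 1.5-fold, WT had 3 members lower (3.97% of all loci) and 1 higher (3.65%), ago2a 2 higher (6.25%) and ago2c 11 lower (9.47%). Members at least 2-fold higher in ago2a numbered 1 with quantile normalization, median scaling and the authors' values. In ago2c they numbered 0 with normexp, 2 without a filter on dim probes and 0 with probes bright on all 6 arrays. With no filter 1 was lower in WT. At the main setting 1.39% of all loci were higher in ago2a, 1.27% higher in ago2c and 1.57% lower in WT. Counts this small are not read as particular to the members. Sign changes were FLA1 at -0.090 (genotype) and -0.13 (response difference) with the mean of probes, and FLA10 at 0.022 and FLA16 at -0.0010 (genotype) with the array group as a block. The causes were not tested. The median of other probes was chosen after seeing the data. The response difference was not run without a line, since no residual degree of freedom is left. The irradiation comparison pairs arrays by line; a further block by replicate number could not be fitted, since each group holds 1 sample.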
